A study of Homo sapiens with 9 samples.

Results

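The 35 genes described here encode regulators of the G2 to M transition and parts of the mitotic machinery, with kinesins and kinetochore proteins left out. They were taken from a list of gene symbols that was chosen with earlier results of these data known. Shares over all genes are therefore given beside the members as a description. All 35 had a probe set among the 23931 genes tested. Expression was measured on Affymetrix arrays in 3 cultures each of 3 groups of H2009, an established human cell line from a lung adenocarcinoma. All groups carried CRISPRa, which is a Cas9 without nuclease activity fused to the transcription activators VP64, p65 and Rta, and grew under blasticidin selection. In the sgRNA-A and sgRNA-B groups a guide RNA directed it to the imprinted 14q32 locus to raise the microRNAs encoded there, and the control group carried the guide vector without a guide. Each guide was represented by 1 cell clone, so the guide and the clone cannot be told apart. A p-value here measures only how replicate cultures of a clone differ.

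Entry into mitosis is driven by CDK1 bound to cyclin A or B, which CDC25 phosphatases switch on and which Polo and Aurora kinases reinforce. The spindle assembly checkpoint then holds the anaphase-promoting complex (APC/C), a ubiquitin ligase, in check until all chromosomes are attached; CDC20 activates that ligase, and the destruction of cyclin B and securin starts anaphase. Transcription of these genes peaks late in the cell cycle and is known to depend on the factors FOXM1 and B-MYB (MYBL2), on a promoter element called the CHR (cell cycle genes homology region), and on CCAAT boxes bound by NF-Y. In bulk RNA, more cells in G2 or mitosis and more messenger RNA per cell cannot be told apart.

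The cultures carried most of the markers of their label. All 10 epithelial markers exceeded a silent level of 4.44 log2 units (the 95th percentile of olfactory receptor genes, which are silent in most tissues), and so did NKX2-1, SFTPC, SFTA3 and FOXA2 of 6 lung lineage genes. The rest of that list, SFTPB and NAPSA, did not exceed it. Every array had a median of 4.91 log2 units over its probe sets, which follows from the normalization (RMA), as it makes array distributions equal. Correlations between arrays were 0.9970 to 0.9982 within groups, and the sgRNA-A array of replicate 3 had a score of 18.97 on principal component 2, apart from the -12.9 to 6.75 of the others. Of 6 leukocyte markers 1 lay above the silent level: CD68, a lysosomal protein, measured 8.74 to 8.77 with sgRNA-A and 8.65 to 8.72 with sgRNA-B, against 8.44 to 8.47 in control cells, and it rose with both. The leukocyte-defining PTPRC measured 3.61 to 3.63 with sgRNA-A and 3.58 to 3.61 with sgRNA-B, against 3.61 to 3.63 in control cells. The mean level of the whole leukocyte list was 4.59 to 4.63, 4.54 to 4.61 and 4.51 to 4.60 in sgRNA-A, sgRNA-B and control arrays. The rise of CD68 with sgRNA-B was lost when any 1 sgRNA-B or control array was left out (adjusted p = 0.0610 to 0.0980, limma). Fibroblast and endothelial lists had 2 of 8 and 1 of 6 genes above the silent level. The epithelial list averaged 11.15 to 11.21 on sgRNA-A arrays and 11.22 to 11.28 on sgRNA-B arrays, against 11.26 to 11.28 on control arrays, and ELF3 and KRT7 fell by 0.35 and 0.18 with sgRNA-A (adjusted p = 0.00575 and 0.017, limma). KRT7 was lost without sgRNA-A replicate 1 or control replicates 1 or 2 (up to 0.0769). The part of these markers in the results below was not tested.

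Messenger RNA of most of these genes was slightly more abundant in activated than in control cells. The log2 fold change was above 0 for 34 of 35 members with each guide, where it was above 0 for 51.7% of all genes with sgRNA-A and 48.4% with sgRNA-B. With sgRNA-A the test called 8 members higher, 0 lower and left 27 uncalled, where 0.957% of all genes rose and 1.22% fell. With sgRNA-B it called 14 higher, 0 lower and left 21 uncalled, where 1.56% of all genes rose and 1.51% fell. A gene is said to have risen or fallen when its adjusted p in limma was below 0.05 over all genes. The changes were small: the median log2 fold change over the 35 was 0.165 with sgRNA-A (range -0.03 to 0.33) and 0.155 with sgRNA-B (-0.13 to 0.45), against 0.004 and -0.004 over all genes. At an unadjusted p below 0.05, 24 were higher and 0 lower with sgRNA-A, where 6.68% and 6.74% of all genes were. With sgRNA-B 23 were higher and 1 lower, where 7.42% and 7.32% of all genes were. The 3 sgRNA-A arrays lay above the 3 control arrays for 24 members, where 8.98% of all genes did so. For sgRNA-B this held for 23 members, against 9.67% of all genes, and 1 member lay below the controls, against 10.5%. The comparisons share their control arrays, so the values of each guide are given side by side and their likeness is not read as a result.

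**Figure D1:**
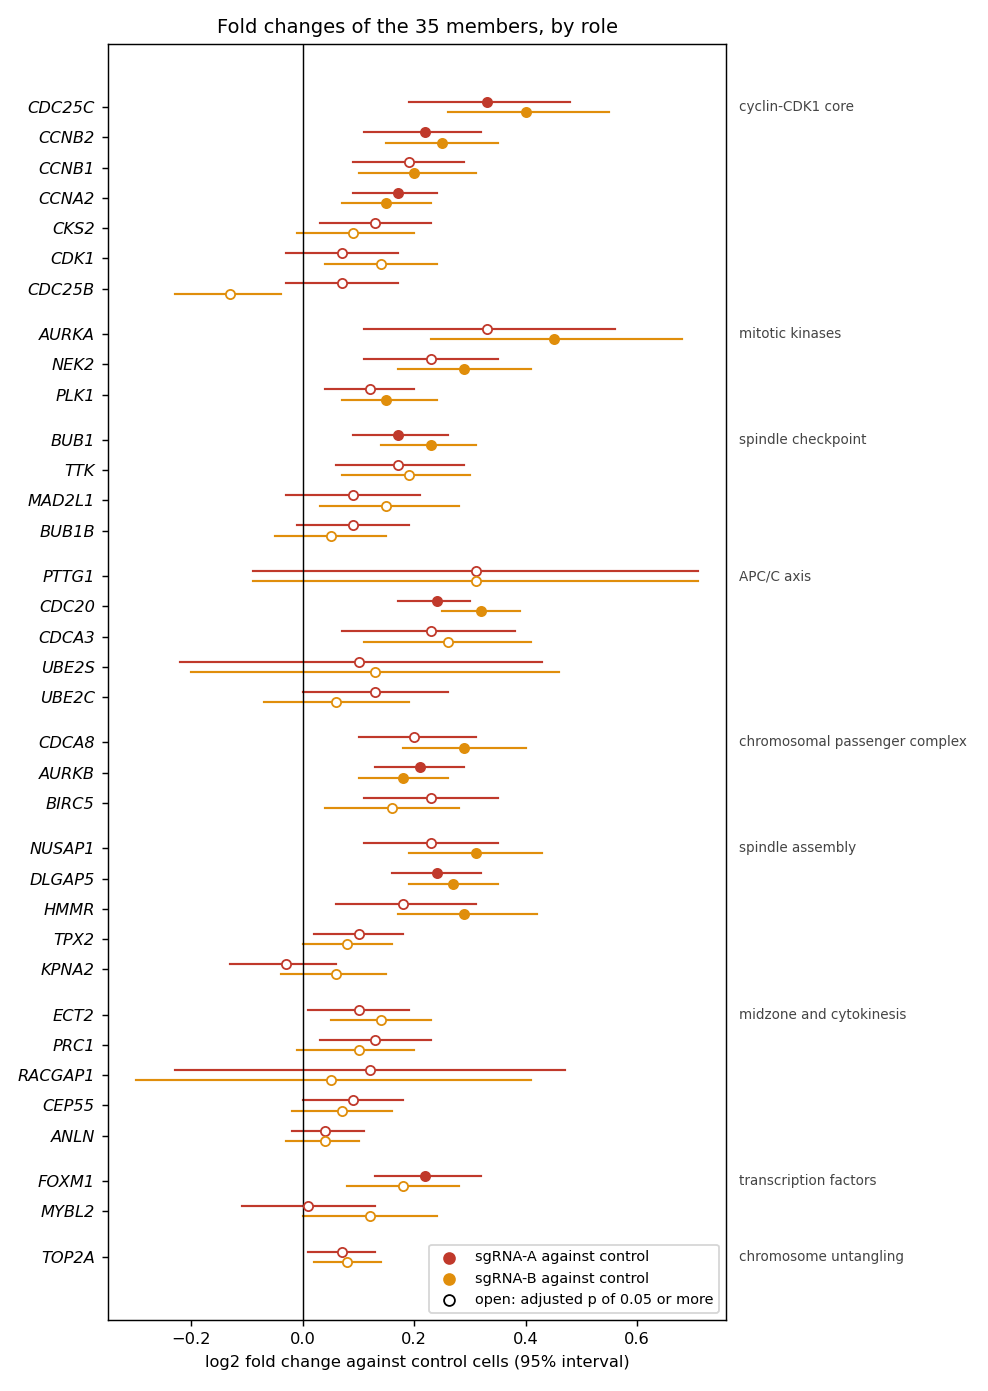
Log2 fold changes of all 35 members against control cells (x axis, log2 units) with 95% intervals, sgRNA-A above sgRNA-B in each row, grouped by role. Filled points passed the test; most lie between 0 and 0.4, and PTTG1, UBE2S and RACGAP1 have the widest intervals.

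Promoter sequences were available from RefSeq (GRCh38.p14) for 28 of the 35 genes, each from 250 bases before to 50 bases after 1 annotated start. The core letters of the CHR, TTTGAA on either strand, occurred in 18 of the 28 windows (64.3%), against 12.7% of the windows of all genes tested. CCAAT on either strand occurred in 23 (82.1%), against 36.1%, and at least 2 copies in 14, against 12.2% of all. Both motifs stood together in 16 (57.1%), against 5.09%. The motifs can share letters where they abut. Windows of DNA replication genes, the S-phase programme, held TTTGAA in 1 of 33 cases (3.03%) and CCAAT in 18 of 33 (54.5%). Windows of the other G2/M genes held TTTGAA in 23 of 32 cases (71.9%) and CCAAT in 20 of 32 (62.5%). Differences between these shares were not tested. A match of letters is a description and does not show binding. A window without a match does not show that a gene lacks the motif, as other annotated starts were not searched. Only the letters TTTGAA were searched for the CHR, so the shares do not count a CHR with other letters.

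The 10 windows below, of 210 bases from 160 bases before the start, belong to the members that passed the test in each guide's comparison and to their paralogues in the list with a window. They are given 5′ to 3′ on the gene's strand, and capitals mark TTTGAA and CCAAT or their reverse complements.
CDC20 (chr1:43358821-43359030, plus strand): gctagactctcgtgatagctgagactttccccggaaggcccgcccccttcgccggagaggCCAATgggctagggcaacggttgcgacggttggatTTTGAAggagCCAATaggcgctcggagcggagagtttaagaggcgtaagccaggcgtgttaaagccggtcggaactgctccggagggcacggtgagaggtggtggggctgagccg
DLGAP5 (chr14:55191536-55191745, minus strand): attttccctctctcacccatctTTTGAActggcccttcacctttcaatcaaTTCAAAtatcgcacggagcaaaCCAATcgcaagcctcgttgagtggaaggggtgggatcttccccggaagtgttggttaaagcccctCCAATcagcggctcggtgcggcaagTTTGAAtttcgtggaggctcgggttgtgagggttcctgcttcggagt
CCNB2 (chr15:59104986-59105195, plus strand): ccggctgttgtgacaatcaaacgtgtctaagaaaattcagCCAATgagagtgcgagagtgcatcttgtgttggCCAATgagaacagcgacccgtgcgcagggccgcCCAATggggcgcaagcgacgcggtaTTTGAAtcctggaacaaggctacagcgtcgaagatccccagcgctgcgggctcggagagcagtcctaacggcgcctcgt
CCNB1 (chr5:69166990-69167199, plus strand): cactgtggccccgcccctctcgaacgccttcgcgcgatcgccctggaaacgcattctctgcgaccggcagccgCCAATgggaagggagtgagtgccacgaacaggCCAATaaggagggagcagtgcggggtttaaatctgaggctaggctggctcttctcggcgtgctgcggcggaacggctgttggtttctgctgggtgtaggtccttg
CCNA2 (chr4:121823834-121824043, minus strand): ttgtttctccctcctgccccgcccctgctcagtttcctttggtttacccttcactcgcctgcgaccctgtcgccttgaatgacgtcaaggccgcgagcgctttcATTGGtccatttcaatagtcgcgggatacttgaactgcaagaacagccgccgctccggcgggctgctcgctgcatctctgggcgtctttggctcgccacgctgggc
BUB1 (chr2:110678014-110678223, minus strand): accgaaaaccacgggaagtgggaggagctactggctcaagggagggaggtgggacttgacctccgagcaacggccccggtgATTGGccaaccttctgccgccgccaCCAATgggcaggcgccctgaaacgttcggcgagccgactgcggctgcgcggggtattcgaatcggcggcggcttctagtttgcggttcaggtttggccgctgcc
BUB1B (chr15:40160909-40161118, plus strand): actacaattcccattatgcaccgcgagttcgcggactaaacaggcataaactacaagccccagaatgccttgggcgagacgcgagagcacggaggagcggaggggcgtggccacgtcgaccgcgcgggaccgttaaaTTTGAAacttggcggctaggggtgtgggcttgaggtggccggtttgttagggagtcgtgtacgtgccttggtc
AURKB (chr17:8210176-8210385, minus strand): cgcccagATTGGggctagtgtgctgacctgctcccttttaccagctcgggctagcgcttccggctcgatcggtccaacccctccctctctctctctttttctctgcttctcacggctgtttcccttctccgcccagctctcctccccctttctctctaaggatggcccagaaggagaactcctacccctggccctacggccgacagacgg
CDC25C (chr5:138338306-138338515, minus strand): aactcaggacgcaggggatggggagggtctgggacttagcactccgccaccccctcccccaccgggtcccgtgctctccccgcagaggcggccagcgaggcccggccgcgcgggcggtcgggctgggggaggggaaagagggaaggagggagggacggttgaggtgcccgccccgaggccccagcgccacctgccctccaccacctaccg
CDC25B (chr20:3786791-3787000, plus strand): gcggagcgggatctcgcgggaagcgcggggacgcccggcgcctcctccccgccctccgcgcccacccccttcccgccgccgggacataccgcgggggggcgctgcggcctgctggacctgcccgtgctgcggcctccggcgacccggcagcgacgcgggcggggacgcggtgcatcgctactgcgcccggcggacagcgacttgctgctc
CCNB2 and CDC20 carry CCAAT boxes upstream of a TTTGAA, at -29 and -65 relative to the start, and in CDC20 a further CCAAT follows it. The windows of CCNB1, CCNA2, BUB1 and AURKB hold CCAAT without TTTGAA in these letters. A CHR with other letters was not searched for, so these windows are not said to lack one. In the AURKB window an atg stands next to the annotated start, and its frame has no stop codon up to the window's end. That start may therefore lie at the coding sequence, and the window may miss the main promoter of AURKB. Its motifs are not read as those of the gene, and the shares above include this window. CDC25C, whose fold change was among the largest, and CDC25B, which did not pass the test, hold neither within 250 bases before the start. Other annotated starts were not searched, so the windows of CDC25C and CDC25B may also miss the main promoters. These windows do not show that either gene lacks the motifs, and the shares above include them as windows without a match.

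The cyclin-CDK1 group had 7 members, of which 3 rose with sgRNA-A, 4 rose with sgRNA-B and 0 fell. CCNB2, cyclin B2, measured 10.63, 10.48 and 10.49 log2 units with sgRNA-A and 10.54, 10.54 and 10.60 with sgRNA-B, against 10.32, 10.35 and 10.28 in control cells. All 6 activated arrays lay above the control arrays, and CCNB2 rose by 0.22 (SE 0.05; adjusted p = 0.0299, limma) with sgRNA-A and by 0.25 (SE 0.05; adjusted p = 0.0108, limma) with sgRNA-B. CCNB1, cyclin B1, measured 10.38, 10.38 and 10.45 with sgRNA-A and 10.40, 10.44 and 10.41 with sgRNA-B, against 10.27, 10.26 and 10.11 in control cells. The groups did not overlap, and CCNB1 rose with sgRNA-B (0.20, SE 0.05; adjusted p = 0.0357, limma) while its 0.19 with sgRNA-A missed the threshold (adjusted p = 0.0591, limma). CCNA2, cyclin A2, which acts in S phase and at mitotic entry, measured 10.96, 10.99 and 10.99 with sgRNA-A and 10.94, 11.01 and 10.95 with sgRNA-B, against 10.83, 10.81 and 10.80 in control cells. It rose by 0.17 (SE 0.04; adjusted p = 0.0317, limma) and 0.15 (SE 0.04; adjusted p = 0.0385, limma), and its arrays did not overlap with the controls.

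CDC25C, the phosphatase that activates CDK1 at mitotic entry, measured 8.70, 8.45 and 8.56 with sgRNA-A and 8.63, 8.70 and 8.59 with sgRNA-B, against 8.20, 8.26 and 8.25 in control cells. It rose 1.26-fold with sgRNA-A (log2 0.33, SE 0.07; adjusted p = 0.0222, limma) and 1.32-fold with sgRNA-B (log2 0.40, SE 0.07; adjusted p = 0.00541, limma), with no overlap between activated and control arrays. Its paralogue CDC25B, which starts CDK1 activation at centrosomes, measured 9.95, 9.93 and 9.92 with sgRNA-A and 9.76, 9.71 and 9.73 with sgRNA-B, against 9.84, 9.82 and 9.93 in control cells. The 3 sgRNA-B arrays were the lowest of the 9, and CDC25B had a log2 fold change of -0.13 with sgRNA-B (adjusted p = 0.149, limma) and 0.07 with sgRNA-A (adjusted p = 0.564, limma). The kinase CDK1 itself measured 9.85, 9.82 and 9.79 with sgRNA-A and 9.85, 9.89 and 9.94 with sgRNA-B, against 9.76, 9.80 and 9.68 in control cells. It did not pass (0.07 and 0.14; adjusted p = 0.581 and 0.142, limma), nor did its small binding partner CKS2 (0.13 and 0.09). The sgRNA-A arrays overlapped the controls for both, whereas for CDK1 the sgRNA-B arrays did not.

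Among the mitotic kinases, PLK1, AURKA and NEK2 all rose with sgRNA-B and 0 of the 3 passed with sgRNA-A in limma, where all 3 were higher at an unadjusted p below 0.05. AURKA, which matures centrosomes and builds the spindle, measured 8.94, 8.94 and 8.89 with sgRNA-A and 9.06, 9.24 and 8.82 with sgRNA-B, against 8.63, 8.77 and 8.37 in control cells. With sgRNA-B it had the largest log2 fold change among the members, 0.45 (SE 0.10; adjusted p = 0.0342, limma). With sgRNA-A it had 0.33 (SE 0.10; adjusted p = 0.146, limma) with sgRNA-A. Its arrays spread more than those of most members, with a SD of 0.21 in both sgRNA-B and control cells. NEK2, which separates centrosomes, measured 8.76, 8.75 and 8.68 with sgRNA-A and 8.78, 8.84 and 8.74 with sgRNA-B, against 8.52, 8.45 and 8.54 in control cells, without overlap. NEK2 rose by 0.29 with sgRNA-B (SE 0.06; adjusted p = 0.0124, limma), and its 0.23 with sgRNA-A had an adjusted p of 0.0524. The Polo kinase PLK1 measured 11.65, 11.70 and 11.66 with sgRNA-A and 11.75, 11.74 and 11.62 with sgRNA-B, against 11.56, 11.52 and 11.57 in control cells. Its arrays did not overlap either, and PLK1 rose by 0.15 with sgRNA-B (adjusted p = 0.0497, limma) and had 0.12 with sgRNA-A (adjusted p = 0.159, limma).

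**Figure D2:**
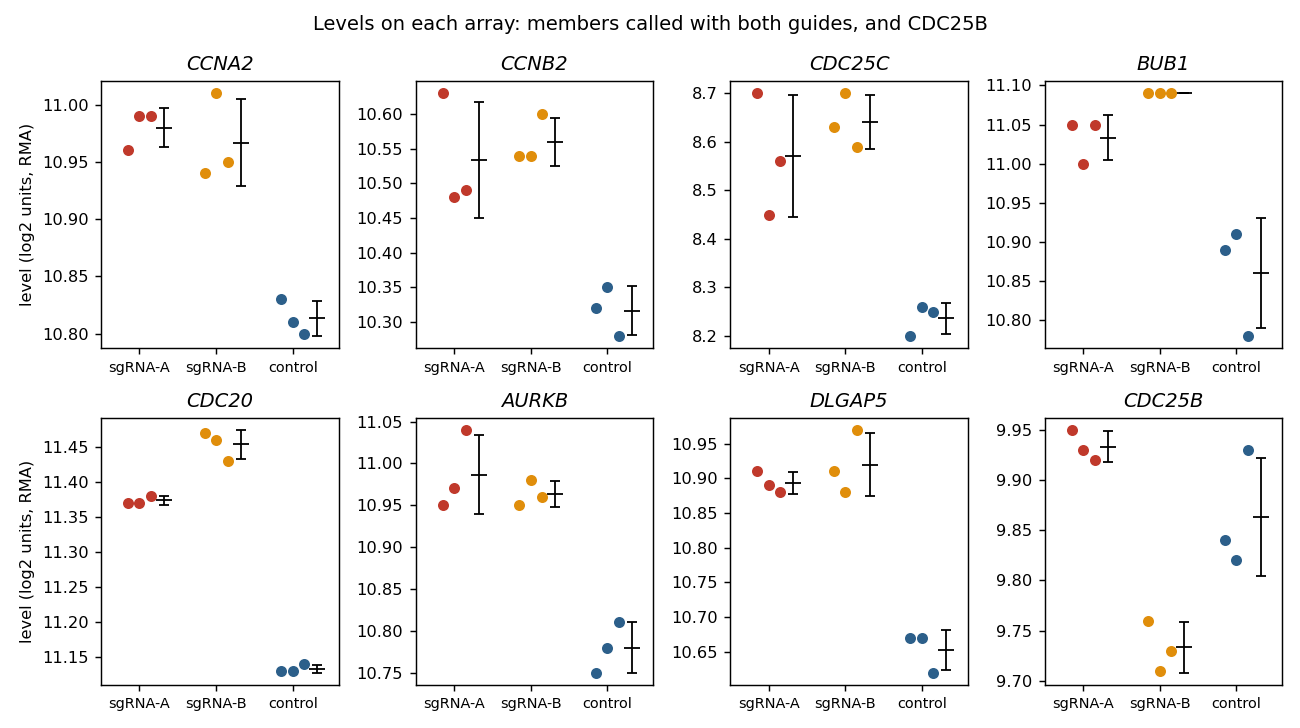
Levels (y axis, log2 units, a separate scale for each gene) on each of the 3 arrays of sgRNA-A, sgRNA-B and control cells, with the mean and SD beside the points, for 7 members that passed the test in each guide's comparison and for CDC25B. In all panels but that of CDC25B every activated array lies above every control array, and for CDC25B the sgRNA-B arrays lie lowest.

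Of the 4 spindle checkpoint genes, BUB1 rose with each guide and the other 3 did not pass with either. BUB1, a kinase that marks kinetochores for the checkpoint, measured 11.05, 11.00 and 11.05 with sgRNA-A and 11.09, 11.09 and 11.09 with sgRNA-B, against 10.89, 10.91 and 10.78 in control cells. It rose by 0.17 (SE 0.04; adjusted p = 0.0445, limma) and 0.23 (SE 0.04; adjusted p = 0.00781, limma), with both groups clear of the controls. Its paralogue BUB1B, the checkpoint protein BubR1, measured 9.82, 9.82 and 9.81 with sgRNA-A and 9.81, 9.77 and 9.75 with sgRNA-B, against 9.76, 9.78 and 9.65 in control cells. BUB1B had log2 fold changes of 0.09 and 0.05 (adjusted p = 0.455 and 0.723, limma), and the sgRNA-B arrays overlapped the controls. TTK, the checkpoint kinase MPS1, had 0.17 and 0.19 (adjusted p = 0.129 and 0.0824, limma), and MAD2L1, which binds CDC20 to block it, 0.09 and 0.15 (adjusted p = 0.548 and 0.194, limma).

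CDC20 had the smallest p-value of the members in both comparisons. This activator of the APC/C measured 11.37, 11.37 and 11.38 log2 units with sgRNA-A and 11.47, 11.46 and 11.43 with sgRNA-B, against 11.13, 11.13 and 11.14 in control cells. The groups did not overlap, and CDC20 rose 1.18-fold with sgRNA-A (log2 0.24, SE 0.03; adjusted p = 0.00225, limma) and 1.25-fold with sgRNA-B (log2 0.32, SE 0.03; adjusted p = 0.000282, limma). By p-value it ranked 43 of 23931 genes with sgRNA-A and 12 with sgRNA-B. CDCA3, a substrate of the APC/C that promotes mitotic entry, measured 8.56, 8.58 and 8.64 with sgRNA-A and 8.70, 8.70 and 8.49 with sgRNA-B, against 8.30, 8.45 and 8.34 in control cells. CDCA3 did not pass (0.23 and 0.26; adjusted p = 0.140 and 0.0642, limma), though its activated arrays lay above the controls. UBE2C, the ubiquitin-conjugating enzyme that starts chains for the APC/C, had 0.13 and 0.06 (adjusted p = 0.397 and 0.720, limma), with overlapping arrays.

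The remaining pair of this group was poorly measured. UBE2S, which extends ubiquitin chains for the APC/C, measured 4.19, 4.96 and 4.33 with sgRNA-A and 4.62, 4.44 and 4.51 with sgRNA-B, against 4.36, 4.34 and 4.46 in control cells, near the silent level of 4.44. PTTG1, securin, which holds separase inactive, measured 6.29, 6.86 and 6.20 with sgRNA-A and 6.30, 6.54 and 6.51 with sgRNA-B, against 6.51, 5.81 and 6.10 in control cells. Arrays overlapped for both genes, and the SE of the log2 fold change was 0.15 for UBE2S and 0.18 for PTTG1, against a median of 0.047 over the members. The estimate of 0.31 for PTTG1 with each guide had a 95% interval of -0.09 to 0.71.

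The chromosomal passenger complex corrects faulty chromosome attachments and directs cytokinesis. Its kinase AURKB measured 10.95, 10.97 and 11.04 with sgRNA-A and 10.95, 10.98 and 10.96 with sgRNA-B, against 10.75, 10.78 and 10.81 in control cells. AURKB rose by 0.21 (SE 0.04; adjusted p = 0.0115, limma) and 0.18 (SE 0.04; adjusted p = 0.0178, limma), without overlap. CDCA8, the subunit borealin, measured 9.88, 9.86 and 9.82 with sgRNA-A and 9.93, 9.99 and 9.88 with sgRNA-B, against 9.56, 9.68 and 9.70 in control cells. It rose by 0.29 with sgRNA-B (SE 0.05; adjusted p = 0.00726, limma), and with sgRNA-A its 0.20 had an adjusted p of 0.0560. BIRC5, survivin, measured 9.0, 8.97 and 9.10 with sgRNA-A and 8.99, 8.99 and 8.88 with sgRNA-B, against 8.76, 8.80 and 8.83 in control cells. The groups did not overlap, but BIRC5 did not pass (0.23 and 0.16; adjusted p = 0.0578 and 0.179, limma).

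Among the 5 spindle assembly genes, 1 rose with sgRNA-A and 3 with sgRNA-B. DLGAP5 (HURP), which stabilises microtubules near chromosomes, measured 10.91, 10.89 and 10.88 with sgRNA-A and 10.91, 10.88 and 10.97 with sgRNA-B, against 10.67, 10.67 and 10.62 in control cells. It rose by 0.24 (SE 0.04; adjusted p = 0.00535, limma) and 0.27 (SE 0.04; adjusted p = 0.00198, limma), with every activated array above every control array. NUSAP1, which bundles microtubules, measured 11.11, 11.12 and 11.09 with sgRNA-A and 11.18, 11.20 and 11.17 with sgRNA-B, against 10.87, 11.02 and 10.73 in control cells. HMMR, a spindle-associated receptor for hyaluronan, measured 10.32, 10.30 and 10.27 with sgRNA-A and 10.33, 10.43 and 10.47 with sgRNA-B, against 10.14, 10.22 and 9.98 in control cells. The control arrays spread widely in both genes, with a SD of 0.14 and 0.13, yet lay below all activated arrays. NUSAP1 rose by 0.31 (adjusted p = 0.0089, limma) and HMMR by 0.29 (adjusted p = 0.0155, limma) with sgRNA-B, and neither passed with sgRNA-A (0.23 and 0.18; adjusted p = 0.0516 and 0.158, limma). TPX2, which activates AURKA on the spindle, had 0.10 and 0.08 (adjusted p = 0.263 and 0.325, limma). KPNA2, an importin that binds such factors, had -0.03 and 0.06 (adjusted p = 0.815 and 0.637, limma) and was the only member with a log2 fold change below 0 with sgRNA-A.

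Of the 5 midzone and cytokinesis genes 0 rose or fell with either guide in limma, and 3 with sgRNA-A and 1 with sgRNA-B were higher at an unadjusted p below 0.05. PRC1, which bundles midzone microtubules, had 0.13 and 0.10, the RhoA activator ECT2 0.10 and 0.14, CEP55, which recruits the abscission machinery, 0.09 and 0.07, and the contractile ring scaffold ANLN 0.04 and 0.04. The lowest adjusted p of these was 0.108, for ECT2 with sgRNA-B, in limma. ANLN was measured closely, at 12.01, 12.00 and 11.97 with sgRNA-A and 11.97, 11.99 and 11.99 with sgRNA-B, against 11.92, 11.99 and 11.94 in control cells. Its groups overlapped, and the 95% intervals of its log2 fold changes were -0.02 to 0.11 and -0.03 to 0.10. RACGAP1, the centralspindlin partner of ECT2, measured 6.18, 5.93 and 6.69 with sgRNA-A and 6.09, 6.40 and 6.11 with sgRNA-B, against 6.10, 6.09 and 6.25 in control cells. With a SE of 0.16, its 0.12 and 0.05 lay within the spread of the arrays. Without sgRNA-A replicate 3 its log2 fold change with sgRNA-A was -0.09.

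Of the transcription factors, FOXM1, which drives many genes of this list, measured 10.11, 10.08 and 10.09 with sgRNA-A and 10.00, 10.13 and 10.00 with sgRNA-B, against 9.87, 9.88 and 9.85 in control cells. All activated arrays lay above the controls, and FOXM1 rose with sgRNA-A (0.22, SE 0.05; adjusted p = 0.0225, limma) and had an adjusted p above 0.05 with sgRNA-B (0.18, SE 0.05; adjusted p = 0.0568, limma). MYBL2 measured 9.79, 9.73 and 9.73 with sgRNA-A and 9.86, 9.92 and 9.80 with sgRNA-B, against 9.86, 9.65 and 9.72 in control cells. Its groups overlapped and it did not pass (0.01 and 0.12; adjusted p = 0.975 and 0.361, limma). TOP2A, the topoisomerase that untangles sister chromatids, measured 12.27, 12.25 and 12.27 with sgRNA-A and 12.26, 12.27 and 12.28 with sgRNA-B, against 12.20, 12.17 and 12.20 in control cells. The activated arrays lay above the controls by a small margin, and TOP2A did not pass (0.07 and 0.08; adjusted p = 0.278 and 0.163, limma).

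Several of these calls depended on single arrays. CDC20 and DLGAP5 with sgRNA-A, and CDC20, DLGAP5, CDC25C, BUB1, CDCA8 and NUSAP1 with sgRNA-B, passed whichever of the 9 arrays was left out (adjusted p up to 0.0432, limma). With sgRNA-A, AURKB was lost without sgRNA-A replicate 3 or control replicate 1 (up to 0.0672), and CCNB2 and CDC25C without replicate 1 or replicate 3 of either sgRNA-A or control (up to 0.107 and 0.0955). FOXM1 was lost without any 1 sgRNA-A array or control replicates 1 or 3 (up to 0.0822). CCNA2 was lost without any 1 sgRNA-A or control array or sgRNA-B replicate 3 (up to 0.103), and BUB1 without any 1 array but control replicate 2 (up to 0.149). With sgRNA-B, CCNB2 was lost without sgRNA-B replicate 3 (0.0532), NEK2 without sgRNA-B replicates 1 or 2 (up to 0.0612) and HMMR without sgRNA-B replicates 2 or 3 (up to 0.0741). AURKB was lost without any 1 sgRNA-B array or control replicate 1 (up to 0.0865), CCNB1 without any 1 sgRNA-B array, control replicate 1 or control replicate 3 (up to 0.120), and AURKA without sgRNA-B replicate 1 or 2, control replicate 1 or control replicate 3 (up to 0.133). PLK1 was lost without any 1 array but sgRNA-B replicate 3 (up to 0.205), and CCNA2 without any 1 of the 9 (up to 0.145). Without sgRNA-A replicate 3, 2 members passed with sgRNA-A in place of 8, and 34 of 35 log2 fold changes were above 0. Without control replicate 1 the counts were 2 with sgRNA-A and 9 with sgRNA-B.

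For both guides pooled against control the test called 18 of 35 members higher and 0 lower, where 1.77% of all genes rose and 1.8% fell. The median log2 fold change was 0.158, against 0.001 over all genes. All 6 activated arrays lay above all 3 control arrays for 21 members, where 4.08% of all genes did so. Members that passed here and in neither single comparison were TTK (0.18; adjusted p = 0.0473, limma), CDCA3 (0.24; 0.0435) and BIRC5 (0.19; 0.0475). Each was lost on leaving out 7 or more of the arrays in turn (adjusted p up to 0.210, 0.202 and 0.204), so these calls lie at the threshold. Without control replicate 1 the count was 10, and without control replicate 3 it was 9.

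Set directly against each other, the clones differed at no member by the test: with sgRNA-A against sgRNA-B 0 rose and 0 fell in limma, where 0.0418% of all genes rose and 0.0627% fell, and 1 was higher and 1 lower at an unadjusted p below 0.05, where 5.25% and 5.24% of all genes were. The higher one was CDC25B, with a log2 difference of 0.20 (95% interval 0.11 to 0.30; adjusted p = 0.132, limma) and no overlap between the 3 arrays of each guide. The lower one was CDC20, with -0.08 (95% interval -0.15 to -0.01; adjusted p = 0.397, limma). A p above the threshold does not show that the clones were alike; for CCNB1 the interval of the difference was -0.12 to 0.09, and for AURKA -0.35 to 0.11.

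Other cell cycle lists, also chosen with earlier results of these data known, were set beside the members. Over all genes, 0.957% rose and 1.22% fell with sgRNA-A, and 1.56% rose and 1.51% fell with sgRNA-B. Of 39 other G2/M genes, 9 rose and 0 fell with sgRNA-A (median log2 fold change 0.120), and 8 rose and 1 fell with sgRNA-B (0.154). ASPM, a spindle pole protein, rose by 0.32 and 0.28, and the condensin subunit NCAPD2 by 0.27 and 0.25. CKS1B, the other CDK-binding CKS protein, rose by 0.42 with sgRNA-A (adjusted p = 0.00225, limma), and FAM83D, a spindle protein, rose by 0.39 with sgRNA-B (adjusted p = 0.000924, limma). These calls held without any 1 array. Of 29 kinetochore and centromere genes, 3 rose with sgRNA-A (median 0.117) and 6 with sgRNA-B (0.149), and 0 fell. HJURP, the chaperone of the centromeric histone, rose by 0.25 and 0.26. Of 13 mitotic kinesins, 2 rose with sgRNA-A (median 0.123), 1 rose with sgRNA-B (0.139) and 0 fell. KIF20A, which acts in cytokinesis, rose by 0.37 (adjusted p = 0.00877, limma) and 0.43 (adjusted p = 0.00221, limma).

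**Figure D3:**
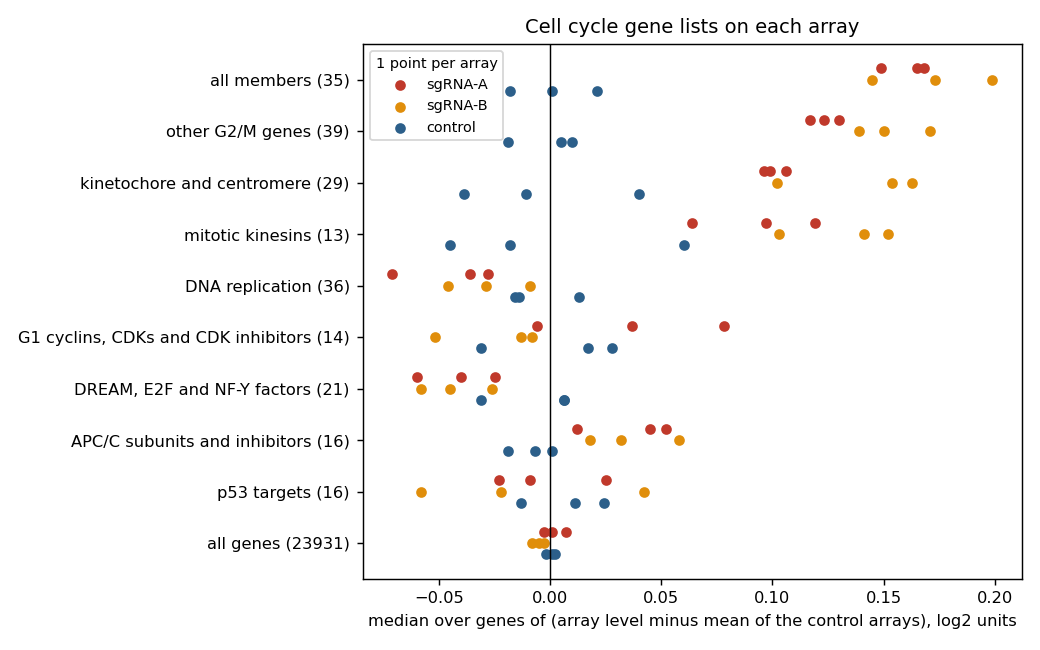
Position of each cell cycle gene list on each array: the x axis gives the median over the list's genes of the array's level minus the mean of the control arrays, in log2 units, with 1 point per array and the number of genes in parentheses. The members lie at 0.149 to 0.168 on sgRNA-A arrays and 0.145 to 0.199 on sgRNA-B arrays, against -0.018 to 0.021 on control arrays, while DNA replication genes lie between -0.071 and 0.013 on all 9.

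Genes of earlier cell cycle phases had medians near or below 0. Of 36 DNA replication genes, 0 rose and 1 fell with sgRNA-A (median -0.049), and 1 rose and 1 fell with sgRNA-B (-0.030). Over all genes, 0.957% rose and 1.22% fell with sgRNA-A, and 1.56% rose and 1.51% fell with sgRNA-B. At an unadjusted p below 0.05, 3 replication genes were higher and 6 lower with sgRNA-A, where 6.68% and 6.74% of all genes were. With sgRNA-B 2 were higher and 8 lower, where 7.42% and 7.32% of all genes were. The helicase subunit MCM6 averaged 10.16 log2 units with sgRNA-A and 10.22 with sgRNA-B, against 10.38 in control cells, and fell by 0.22 (adjusted p = 0.00833, limma) and 0.16 (adjusted p = 0.0366, limma). The fall with sgRNA-A held without any 1 array, and that with sgRNA-B was lost for 7 of the 9, namely any 1 sgRNA-B or control array or sgRNA-A replicate 1 (up to 0.121). The thymidine kinase TK1 averaged 10.39 with sgRNA-A and 10.48 with sgRNA-B, against 10.22 in control cells, and rose by 0.26 with sgRNA-B (adjusted p = 0.00421, limma), also without any 1 array. Of 14 G1 cyclins, CDKs and CDK inhibitors, 0 rose or fell with sgRNA-A in limma (2 higher and 2 lower at an unadjusted p below 0.05) and 2 fell with sgRNA-B: the G1/S cyclins CCNE2 (-0.33; adjusted p = 0.0257, limma) and CCNE1 (-0.21; adjusted p = 0.0467, limma). CCNE2 was lost without sgRNA-B replicate 1 or 3, control replicate 2 or control replicate 3 (up to 0.111). CCNE1 was lost without sgRNA-B replicates 1 or 2, sgRNA-A replicates 2 or 3 or any 1 control array (up to 0.199).

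Regulators of G2/M transcription and of protein degradation were also measured. Over all genes, 0.957% rose and 1.22% fell with sgRNA-A, and 1.56% rose and 1.51% fell with sgRNA-B. At an unadjusted p below 0.05, 6.68% of all genes were higher and 6.74% lower with sgRNA-A. With sgRNA-B these shares were 7.42% and 7.32%. Of 21 DREAM, E2F and NF-Y factors, 0 rose and 1 fell with sgRNA-A (median -0.044), and 0 rose or fell with sgRNA-B in limma (median -0.012; 0 higher and 5 lower at an unadjusted p below 0.05). The member that fell was RBL1, the pocket protein p107 (-0.30; adjusted p = 0.0393, limma), a call lost without any 1 sgRNA-B array, sgRNA-A replicate 1 or 3, control replicate 1 or control replicate 2 (up to 0.170). None of 16 APC/C subunits and inhibitors changed (medians 0.034 and 0.047) in limma, with 2 and 3 higher and 0 lower at an unadjusted p below 0.05. Of 16 p53 targets, 0 changed with sgRNA-A in limma, with 1 higher and 2 lower at an unadjusted p below 0.05. With sgRNA-B the atypical cyclin CCNG1 rose (0.27; adjusted p = 0.01, limma), a call lost without sgRNA-B replicate 2 (0.0521).

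The shift was seen on every activated array. The median of the members' levels relative to the control mean was 0.149, 0.168 and 0.165 on the sgRNA-A arrays and 0.173, 0.199 and 0.145 on the sgRNA-B arrays, against 0.001, 0.021 and -0.018 on the control arrays. No array of either guide reached down to the controls, replicate 3 of sgRNA-A included. Over all genes the same medians lay between -0.008 and 0.007 on the 9 arrays. RMA makes array distributions equal, so values near 0 over all genes largely follow from the processing. By role, the median log2 fold change with sgRNA-A and sgRNA-B was 0.23 and 0.29 for the mitotic kinases, 0.21 and 0.18 for the passenger complex, and 0.18 and 0.27 for spindle assembly genes. It was 0.226 and 0.263 for the APC/C group, which includes the poorly measured UBE2S and PTTG1. The cyclin-CDK1 group had 0.165 and 0.152, and the spindle checkpoint genes had 0.132 and 0.171. The transcription factors had 0.116 and 0.147, TOP2A had 0.07 and 0.08, and the midzone and cytokinesis genes had 0.10 and 0.07. These are descriptions of 1 to 7 genes each, and differences between roles were not tested.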

How the data were processed

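Biotinylated cRNA from 9 cultures was measured on Affymetrix arrays, as the labels' protocols state. The authors deposited 1 log2 value per probe set and array, made with RMA per the submitters' processing notes; its version, background settings and genome build are not given in the sources used here. By design, RMA makes array distributions equal, which removes shifts common to all genes. Groups and replicate numbers came from the sample titles. The platform annotation gave 1 symbol for 23934 of 24733 probe sets, several for 0 and none for 799; for symbols with several, the probe set with the highest mean was kept, leaving 23931 genes, and no dim gene was removed. All 9 arrays entered 1 model with a mean per group (limma 3.58.1, R 4.3.3, lmFit and eBayes with a trend; 6 residual and 7.27 prior degrees of freedom), with Benjamini-Hochberg adjustment over all genes. SDs are of 3 arrays, SEs are those of the fit, and precision is limited by how many arrays there are. The fit was tested on simulated data. The members and gene lists were chosen with earlier results of these data known; some genes of the further lists are not reported here. All members are named; of each further list, up to 4 called genes per comparison could be named, those with the smallest p. Promoter windows were printed for members called in each guide's comparison and their paralogues. Same-numbered arrays did not deviate together (correlations of deviations -0.145 to 0.135), so no pairing was used. Alternatives were leaving out each array, a replicate block, array weights, robust or untrended variances, fits with only the groups being compared, a filter on dim genes, repeated normalization, centring and averaged probe sets.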

Additional observations from a re-analysis of the deposited data

How the results depend on the processing

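Nothing changed sign among called members under any alternative run. Leaving out 1 array at a time gave 2 to 10 rises among the members with sgRNA-A, 7 to 14 with sgRNA-B and 9 to 17 with both guides together, with 0 falls. It gave 0 rises and 0 falls between the guides. Counts over all genes ranged from 223 to 435, 353 to 735, 405 to 767 and 6 to 30 in the same order of comparisons, against 522, 735, 855 and 25. The median log2 fold change of the members ranged from 0.140 to 0.167, 0.143 to 0.187 and 0.149 to 0.171, and from -0.028 to -0.010 between the guides. Without a variance trend, 3, 7 and 10 members rose with sgRNA-A, sgRNA-B and both, where 364, 520 and 678 of all 23931 genes were called. With only the compared groups in the fit, 4 members and 321 genes were called with sgRNA-A, where fewer arrays estimate the spread; this was not run for both guides together, which needs all arrays. Removal of the dimmest 30% or 50% of genes, with the model fitted again, gave 13 rises with sgRNA-A. The filter changes both the number of genes adjusted for and the variance estimates, and their parts were not tested. The 30% filter gave 663 of 16752 genes with sgRNA-A. The 50% filter, which removes UBE2S, gave 786 of 11966 genes with sgRNA-A and 39 between the guides, with a member median of -0.021 there. With the replicate number as a block, 9, 11 and 15 members rose and 0 fell, with 465, 684 and 798 genes called, and 34 between the guides; the labels do not say what a number shares, and 7 of the 8 calls with sgRNA-A were among the 9. The replicate block gave the same member medians, 0.165 and 0.155. Array weights, robust variances, repeated quantile normalization, median centring and averaged probe sets left the members' counts within 1 of the values reported. Repeated normalization and centring could change little, as RMA had already made the array distributions equal. Averaging could change little either, as 23934 probe sets gave 23931 genes. Of the members only UBE2S was near the silent level. PTTG1 and RACGAP1 lay above it, at means of 6.35 and 6.21, yet had SEs of 0.18 and 0.16 with sgRNA-A. Whether their low signal accounts for this was not tested.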

Other observations

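Outside all lists used, 405 genes above the silent level had both TTTGAA and CCAAT in the promoter window, with a median log2 fold change of -0.001 (sgRNA-A) and -0.010 (sgRNA-B). Of these, 9 rose and 8 fell with sgRNA-A (2.22% and 1.98%), and 18 rose and 8 fell with sgRNA-B (4.44% and 1.98%). The 6118 genes with neither motif had medians of -0.002 and -0.013, with 1.45% rising and 2.04% falling with sgRNA-A, and 2.12% rising and 2.96% falling with sgRNA-B. The members' medians were 0.165 and 0.155. Differences between these shares were not tested. The lists left out hold the G2/M, kinetochore and kinesin genes, which were chosen with earlier results of these data known. The medians outside the lists therefore cannot show whether the motifs go with a rise.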
